A study of Mus musculus with 6 samples.

Results

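The genes described here are the ligands, receptors and first intracellular switch of the FAS and TRAIL death pathways in CT26 tumors: Fasl, Tnfsf10, Fas, Tnfrsf10b, Cflar and Casp8. They were taken by symbol from the deposited count table, and all 6 of the listed names matched 1 of its 23122 genes each. All 6 passed the filter on low counts, which kept 14189 genes. The samples were 6 subcutaneous tumors of CT26, a murine colorectal cancer line, grown in female BALB/c mice of 6 to 8 weeks from 500000 injected cells. One group of 3 tumors came from mice given vehicle. The other group of 3 came from mice dosed with TP-18, which blocks the prostaglandin E2 receptors EP2 and EP4. Oral dosing at 50 mg/kg was repeated every day over 3 weeks. Both groups shared the cell line, host strain, sex and site, and CT26 is a single line with a host immune system present.

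Death receptors let one cell order another to die. FAS ligand, made mainly by activated T and NK cells, binds FAS, and TRAIL, the product of Tnfsf10, is made by many leukocytes and binds the receptor encoded in the mouse by Tnfrsf10b. A bound receptor recruits the adaptor FADD and then caspase-8, which activates the effector caspases, while c-FLIP, the product of Cflar, resembles caspase-8 but lacks its protease activity and competes for its place in the complex. In many tumors this pathway is held in check at the receptors or by c-FLIP.

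The libraries held 34813482 to 36489081 counts, and 18429 to 19617 genes were detected. Gene levels appear either as CPM, scaled by library totals with TMM correction for composition, or as the authors' FPKM. FPKM is scaled by total count alone and divided by gene length, which allows genes to be set against each other. Calls are edgeR quasi-likelihood tests with p-values adjusted by Benjamini-Hochberg over all tested genes and a threshold of 0.05. They took in 12.4% of tested genes, 7.09% (1006) as higher and 5.26% (747) as lower with TP-18. On the authors' FPKM, scaled by total count alone, limma called 1438 higher and 230 lower. Intestinal epithelial markers were scarce for a colorectal line: Epcam had 0 to 24 reads, Vil1 0 to 8 and Cdx2 2 to 16 per library, while Krt20 was plentiful at 307 ± 40.5 CPM in vehicle tumors (SD, n = 3). The labels do not say that the samples came from separate mice, so p-values cover only the spread between these samples, and intervals cover no other error. In bulk tumor RNA, a change in the number of cells that express a gene and a change in RNA per cell cannot be told apart.

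Both death ligands were higher in TP-18 tumors, and no other member was called higher. Tnfsf10 rose 6.67-fold and Fasl 4.14-fold. One receptor, Tnfrsf10b, fell to 0.693 of its vehicle level, a call kept in 2 of 6 fits with 1 library left out. Fas, Cflar and Casp8 were not called. Thus 2 of 6 members were called higher and 1 lower, beside 7.09% higher and 5.26% lower over all tested genes. In 4 of the 6 the groups did not overlap in CPM, 2 with TP-18 above and 2 with TP-18 below, as was the case for 35.8% of all tested genes. The median log2 change was 0.20 over the 6 and -0.01 over all tested genes.

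The promoters of the ligands that rose together are shown with that of Fas, the receptor that overlapped between groups. RefSeq sequences of build GRCm38.p6 were matched for 5 of the 6 members, with none printed for Tnfrsf10b. Each line gives the 250 bases before the transcription start that the table uses, 5′ to 3′ on the gene's own strand, with matches to the searched motifs in capitals: chr1:161788496-161788745 on the minus strand for Fasl, chr3:27316827-27317076 on the plus strand for Tnfsf10 and chr19:34290409-34290658 on the plus strand for Fas.
Fasl: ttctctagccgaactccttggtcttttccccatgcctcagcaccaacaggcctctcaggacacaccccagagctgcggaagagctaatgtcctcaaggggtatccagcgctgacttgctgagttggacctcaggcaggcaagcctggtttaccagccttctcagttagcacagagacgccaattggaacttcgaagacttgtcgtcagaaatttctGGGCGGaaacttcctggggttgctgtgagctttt
Tnfsf10: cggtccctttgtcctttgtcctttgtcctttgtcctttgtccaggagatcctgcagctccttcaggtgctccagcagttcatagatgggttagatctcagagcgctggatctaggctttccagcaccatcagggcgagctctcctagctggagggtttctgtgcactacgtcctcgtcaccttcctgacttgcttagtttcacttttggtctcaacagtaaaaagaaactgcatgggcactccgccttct
Fas: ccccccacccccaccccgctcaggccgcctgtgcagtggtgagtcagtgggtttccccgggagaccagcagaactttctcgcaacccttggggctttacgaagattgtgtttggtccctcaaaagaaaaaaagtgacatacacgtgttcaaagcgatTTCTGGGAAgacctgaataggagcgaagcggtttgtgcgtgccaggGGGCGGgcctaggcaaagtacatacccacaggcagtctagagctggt

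Searched on both strands over these bases and the 50 that follow were the gamma-activated site (GAS, TTCNNNGAA), the interferon-stimulated response element (ISRE, GAAANNGAAA), the NF-kB motif and the SP1 motif (GGGCGG). Fas held 1 GAS match, TTCTGGGAA, 93 bases before the start, and 2 SP1 matches. Fasl held 1 SP1 match 34 bases before the start, and Tnfsf10 held no match to any of the 4 motifs in this window. For Cflar and Casp8 the table's start lies inside the gene span given for them here. The Cflar bases before the start, 58711241 to 58711490, include the first base of the Cflar span, 58711311. Those of Casp8, 58802252 to 58802501, lie wholly within the Casp8 span. Cflar held 1 ISRE match, TTTCGGTTTC, in the 50 bases after the table's start, and no other match. Casp8 held no match to any of the 4 motifs. A GAS match occurred in 8.30% of 32851 promoters of this length, an ISRE match in 3.44%, an NF-kB match in 8.46% and an SP1 match in 35.7%. The sequences of Fasl and Tnfsf10 shared no searched motif in this window.

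Fasl (Entrez 14103, chromosome 1, 161780691 to 161788495, minus strand, GRCm38) encodes FAS ligand, a membrane protein with which cytotoxic lymphocytes kill. It had 42, 28 and 30 reads in vehicle tumors 1, 2 and 3 and 166, 128 and 172 reads in TP-18 tumors 1, 2 and 3. In CPM these were 1.20, 0.857 and 0.937 with vehicle and 4.46, 3.50 and 4.41 with TP-18. The lowest TP-18 tumor, number 2, lay well above the highest vehicle tumor, number 1, so the groups were separate. The group means of Fasl were 0.997 ± 0.177 and 4.13 ± 0.539 CPM (SD, n = 3 in each). Its log2 change was 2.04 ± 0.27 (SE; adjusted p = 0.00529, edgeR). The call was kept without each library in turn, at adjusted p-values of 0.00491 to 0.0285 in edgeR.

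Tnfsf10 (Entrez 22035, chromosome 3, 27317077 to 27339665, plus strand) encodes TRAIL, a ligand that is known to be interferon-inducible. Vehicle tumors 1 to 3 gave 103, 57 and 72 reads of it, and TP-18 tumors 1 to 3 gave 509, 664 and 558. The matching CPM values were 2.93, 1.75 and 2.25 with vehicle and 13.7, 18.2 and 14.3 with TP-18. Every TP-18 tumor stood several times above every vehicle tumor, and TP-18 tumor 2, the lowest of its group for Fasl, was the highest for Tnfsf10. Means were 2.31 ± 0.595 and 15.4 ± 2.43 CPM, a log2 change of 2.73 ± 0.23 (adjusted p = 0.00149, edgeR). Of the 14189 tested genes, 97 had a log2 change at least as large as that of Tnfsf10 and 291 one at least as large as that of Fasl. Without each library in turn the log2 change ran from 2.57 to 2.96 and the call was kept in all 6 fits, with adjusted p-values up to 0.00970.

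Tnfrsf10b (Entrez 21933, chromosome 14, 69767472 to 69784411, plus strand) encodes the death receptor for TRAIL. It measured 23.8, 22.4 and 23.6 CPM in vehicle tumors 1 to 3 and 15.5, 18.5 and 14.4 CPM in TP-18 tumors 1 to 3. The vehicle tumors lay close together, and all 3 TP-18 tumors were below them. Means were 23.2 ± 0.749 and 16.1 ± 2.14 CPM, a log2 change of -0.53 ± 0.12 (adjusted p = 0.0283, edgeR). Leaving out a library ended the call in 4 of 6 fits, at edgeR adjusted p-values of 0.0837 (vehicle 2), 0.0598 (vehicle 3), 0.0924 (TP-18 1) and 0.104 (TP-18 3). On the authors' FPKM scale, where the median over tested genes was 0.14 higher than with TMM, the change was -0.39 with a limma adjusted p of 0.0786.

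Fas (Entrez 14102, chromosome 19, 34290647 to 34327775, plus strand) encodes the receptor for FAS ligand. Relative to its level it was the member with the widest spread, with the largest SE of the log2 change among the 6. It measured 4.16, 7.26 and 8.78 CPM in vehicle and 6.45, 10.4 and 7.02 CPM in TP-18 tumors 1 to 3. The groups overlapped, with vehicle 3 above TP-18 1 and TP-18 3. The log2 change of 0.24 ± 0.30 (adjusted p = 0.629, edgeR) had a 95% interval of -0.46 to 0.95. It was 0.50 when vehicle 3 was left out, but 0.01 when vehicle 1 and 0.00 when TP-18 2 was left out. The annotation places the small RNA gene Gm27818 on the same strand within Fas.

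**Figure D1:**
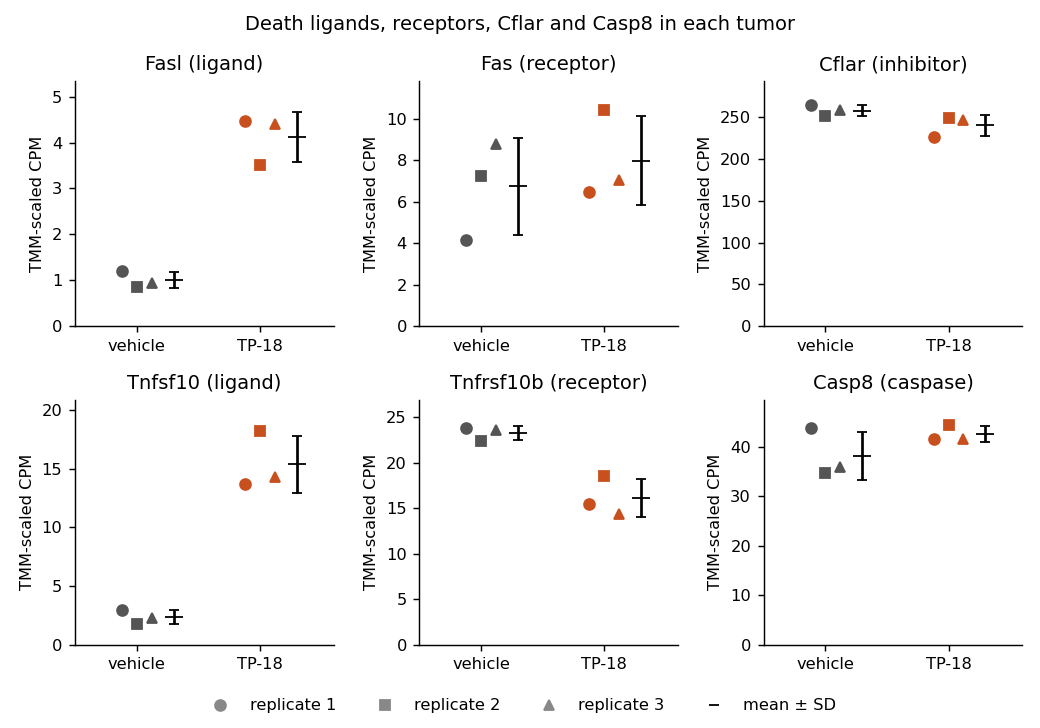
TMM-scaled CPM (y axis, from 0, a scale of its own per panel) of each gene in the 3 vehicle tumors (grey) and 3 TP-18 tumors (orange), with mean ± SD in black. Fasl and Tnfsf10 are higher in all TP-18 tumors, at 3.50 to 4.46 and 13.7 to 18.2 CPM, Tnfrsf10b is lower at 14.4 to 18.5 CPM, and Fas and Casp8 overlap.

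Cflar and Casp8 sit beside each other on chromosome 1 and act on the same complex. Cflar (Entrez 12633, chromosome 1, 58711311 to 58758884, plus strand) measured 265, 251 and 259 CPM in vehicle and 226, 249 and 247 CPM in TP-18 tumors 1 to 3. All TP-18 values were below all vehicle values on this scale, by a small margin between TP-18 2 and vehicle 2. The log2 change was -0.10 ± 0.07 (adjusted p = 0.396, edgeR) with a 95% interval of -0.27 to 0.07. On the FPKM scale the groups overlapped, at 26.8 to 30.1 against 27.0 to 30.0, and the sign turned, with a log2 change of 0.04 (adjusted p = 0.759 in limma).

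Casp8 (Entrez 12370, chromosome 1, 58795233 to 58847503, plus strand), the initiator caspase of both receptors, measured 43.8, 34.8 and 35.9 CPM in vehicle and 41.6, 44.6 and 41.7 CPM in TP-18 tumors 1 to 3. Vehicle 1 reached the level of the TP-18 tumors, while vehicle 2 and 3 lay below them. The log2 change was 0.16 ± 0.11 (adjusted p = 0.344, edgeR) with a 95% interval of -0.08 to 0.40. Without vehicle 1 it was 0.29 with an adjusted p of 0.0569. In RefSeq the gene begins 36.3 kb beyond the end of Cflar, with 1 annotated gene between them, and the annotated gene Gm37760 overlaps it on the same strand. Gene counts do not separate the 4 coding transcripts of Casp8 or the 4 of Cflar that GENCODE lists, so the long and short forms of c-FLIP are counted together.

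Levels per length put the intracellular genes far above the ligands. In vehicle tumors the order of mean FPKM was Cflar at 28.0 ± 1.83, Casp8 at 12.0 ± 2.09, Tnfrsf10b at 6.96 ± 0.452, Fas at 2.59 ± 0.814, Fasl at 0.492 ± 0.109 and Tnfsf10 at 0.447 ± 0.133 (SD, n = 3). All neighbours in that order were separate except the ligands, Fasl and Tnfsf10, whose ranges overlapped. In TP-18 tumors Cflar, Casp8 and Tnfrsf10b kept the first places at 28.8 ± 1.59, 14.8 ± 0.397 and 5.32 ± 0.621 FPKM. Fas at 3.41 ± 0.871 and Tnfsf10 at 3.27 ± 0.473 FPKM then overlapped, and Fasl followed at 2.24 ± 0.321. So per length the ligands came within the range of, or just below, the receptor Fas, but both stayed below Tnfrsf10b. This order rests on 1 length per gene: 4944 bases for Tnfsf10, 1935 for Fasl, 2450 for Fas and 3179 for Tnfrsf10b. In CPM, which is not divided by length, Tnfsf10 at 13.7 to 18.2 and Tnfrsf10b at 14.4 to 18.5 overlapped in TP-18 tumors.

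**Figure D2:**
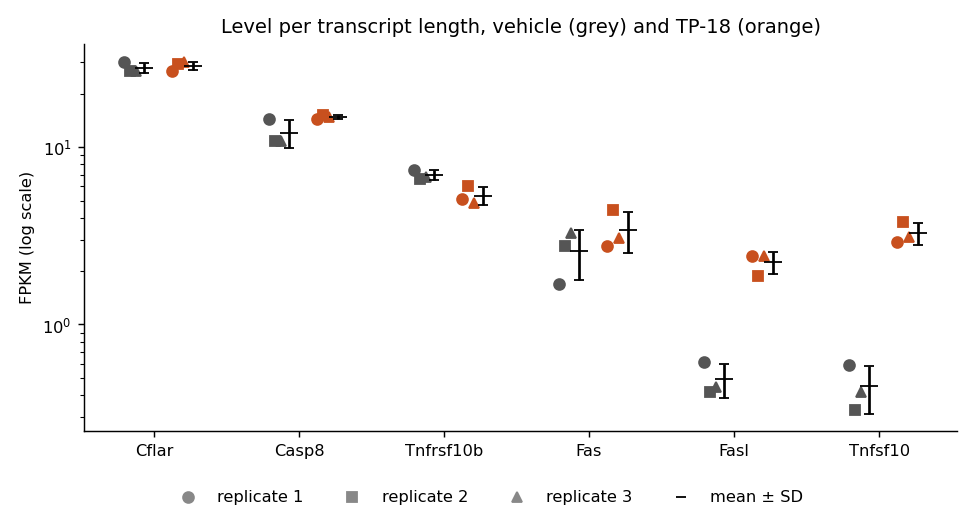
FPKM (y axis, log scale) of the 6 genes in each tumor, vehicle in grey and TP-18 in orange, with mean ± SD in black. Cflar lies between 26.8 and 30.1 FPKM in all tumors, while Tnfsf10 goes from 0.331 to 0.592 with vehicle to 2.90 to 3.80 with TP-18.

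Ratios within a tumor do not depend on how libraries are scaled, apart from the pseudocount. They were taken as differences of log2(FPKM + 0.1), and tested by a two-sided exact permutation test, which with 3 against 3 cannot go below p = 0.1. P-values were adjusted over the 5 ratios tested, of which 4 are reported. Tnfsf10 relative to its receptor Tnfrsf10b was -3.45, -3.96 and -3.74 in vehicle and -0.79, -0.65 and -0.63 in TP-18 tumors 1 to 3. The groups lay far apart, with a difference of 3.03 ± 0.16 (SE) or 8.15-fold (exact permutation p = 0.1, adjusted 0.167), and of 1.89 on log2(FPKM + 1). Fasl relative to Fas was -1.32, -2.48 and -2.64 in vehicle and -0.18, -1.19 and -0.32 in TP-18 tumors. The groups were separate but close at vehicle 1 and TP-18 2, with a difference of 1.58 ± 0.52 (exact permutation p = 0.1, adjusted 0.167). On log2(FPKM + 1) the difference was 0.81 and the groups overlapped (exact permutation p = 0.2).

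The inhibitor stood above the caspase in every tumor. Cflar relative to Casp8 was 1.05, 1.31 and 1.30 in vehicle and 0.90, 0.94 and 1.02 in TP-18 tumors 1 to 3. This is 2.34 times as much Cflar per length in vehicle and 1.94 times in TP-18 tumors on average, with TP-18 values below all vehicle values and vehicle 1 close to TP-18 3. The log2 difference was -0.27 ± 0.09 (exact permutation p = 0.1, adjusted 0.167).

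Fasl was also set against 19 T and NK cell markers in the same tumor, because those cells are its main known source. Relative to their mean log2 level it was -0.67, -0.58 and -0.68 in vehicle and -0.67, -1.13 and -0.59 in TP-18 tumors 1 to 3. The groups overlapped, and TP-18 2 stood lowest, with a difference of -0.16 ± 0.17 (SE, exact permutation p = 0.5). Without TP-18 2 the difference was 0.01. On log2(FPKM + 1) it was -0.26, and all TP-18 tumors lay below all vehicle tumors (exact permutation p = 0.1). Over all tested genes 7.09% were called higher. The markers themselves were called higher in 12 of 12 tested T cell and 7 of 7 tested NK cell genes. Their summed CPM ran from 19.0 to 35.2 in vehicle and 100 to 115 in TP-18 tumors for T cells and from 43.3 to 49.7 and 128 to 168 for NK cells. Their part in the rise of Fasl was not tested.

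**Figure D3:**
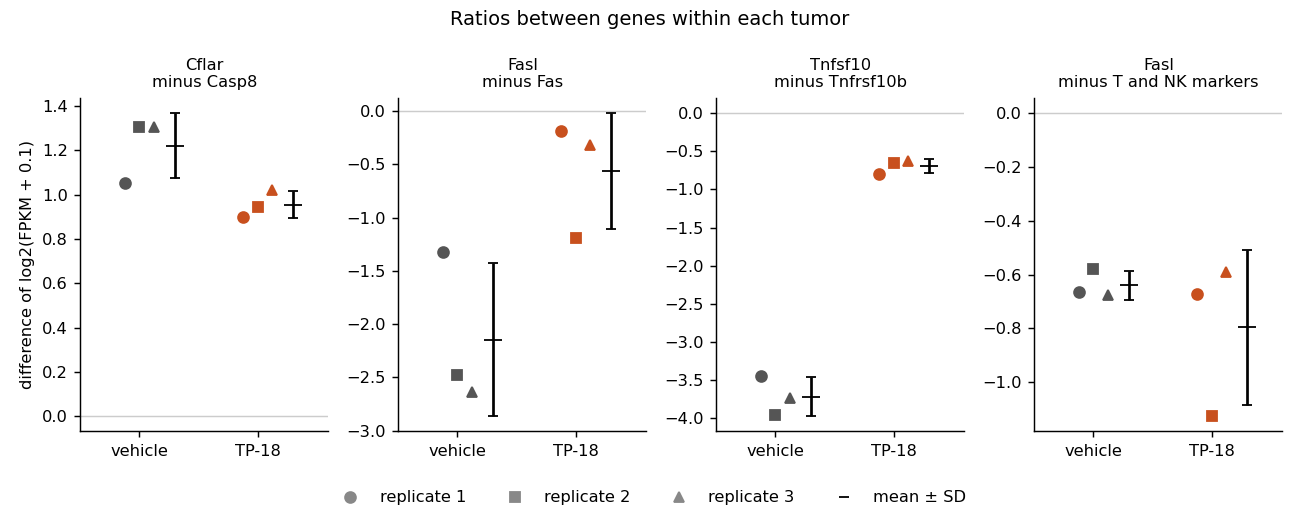
Differences of log2(FPKM + 0.1) between pairs of genes (y axis, a scale of its own per panel) in each vehicle (grey) and TP-18 (orange) tumor, with mean ± SD in black. The difference of Tnfsf10 and Tnfrsf10b goes from a mean of -3.72 to -0.69, while that of Fasl and the 19 T and NK cell markers overlaps between groups at this pseudocount.

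Other marker lists held calls in both directions, and their counts stand beside 7.09% higher and 5.26% lower over all tested genes. Of 11 macrophage and monocyte markers, 6 were called higher, with summed CPM of 1557 to 2290 in vehicle and 3082 to 4063 in TP-18 tumors. Of 8 dendritic cell markers, 4 were called higher, with sums of 18.6 to 25.6 and 34.5 to 51.9 CPM. Of 13 genes of interferon gamma and its early response, 10 were called higher, and their median log2 change was 1.30. Ifng itself had 16, 4 and 12 reads in vehicle and 134, 166 and 87 in TP-18 tumors 1 to 3, and Irf1, a transcription factor it induces, rose from 88.3 ± 5.35 to 218 ± 51.6 CPM. Skeletal muscle markers were called higher in 5 of 10, at 10.4 to 33.2 against 55.9 to 119 CPM in sum, and red blood cell markers lower in 4 of 5, at 66.3 to 395 against 14.8 to 33.9 CPM. The part of these shifts in the changes of Tnfsf10, Fasl and Tnfrsf10b was not tested.

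Genes whose levels followed each member most closely over the 6 tumors were taken as the 3 with the highest Pearson r of log2 CPM among 10754 genes of sufficient level. These r values describe 6 points in 2 groups that share their libraries. Group means were not removed, so r between called genes includes the difference between the groups. Fasl was most like Ptpn7, Pik3cg and Fam78a (r = 0.996, 0.995 and 0.993), of which Pik3cg encodes a phosphoinositide 3-kinase subunit of leukocytes. Tnfsf10 was most like Plaat3, Itgal, the alpha chain of the leukocyte integrin LFA-1, and Clec12a, a myeloid lectin (r = 0.999, 0.998 and 0.998). All 6 of these genes were themselves called higher with TP-18. Tnfrsf10b was most like Klhl22, Erc2 and Eif2b5 (r = 0.994, 0.990 and 0.986), of which Erc2 was called lower at a log2 change of -0.86. Fas followed Usp24, Ubr3 and Fgf10 (r = 0.992, 0.984 and 0.980), Cflar Itpkc, Angptl6 and Cpox (r = 0.992, 0.991 and 0.988), and Casp8 Dnajc14, Ypel3 and Scamp2 (r = 0.989, 0.978 and 0.978), none of which was called. Between members, r was 0.98 for Fasl with Tnfsf10, -0.94 for Fasl with Tnfrsf10b and 0.18 for Fasl with Fas, which was not called. Within the TP-18 group, tumor 2 was the lowest for Fasl and the highest for Tnfsf10.

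The rest of the cell death machinery was read from 7 lists with 78 tested genes. In these lists 16 genes were called higher and 7 lower, or 20.5% and 8.97%, and their median log2 change was 0.22. Over all tested genes the shares were 7.09% higher and 5.26% lower, and the median was -0.01. The counts per list below stand beside these same shares, and no list was tested as a set. Higher calls included Naip2, Naip5, Naip6, Bcl2a1a, Bcl2a1b and Bcl2a1d, and lower calls included Tnfrsf23 and Tnfrsf26. These are near copies or close paralogs within their families, so their calls may not be separate. The lists were also chosen with earlier results of these data known. Of the 23 calls, those on Tnf, Ltb, Birc3, Casp1, Casp12 and Bcl2a1d were kept without each library in turn.

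Among 13 tested genes for other ligands and receptors of the family, 3 were higher (Tnf, Ltb and Tnfrsf21) and 3 lower. Tnf, the founding death ligand, rose from 1.85 ± 0.0564 to 6.65 ± 1.70 CPM (1.85 ± 0.25 in log2 units, adjusted p = 0.00564, edgeR), and Ltb, a lymphotoxin chain, rose from 2.89 ± 0.896 to 12.7 ± 1.22 CPM. Tnfrsf1a, the death receptor for TNF, was not called, at 136 ± 4.58 and 135 ± 9.24 CPM (adjusted p = 0.992). Tnfrsf12a, the receptor for TWEAK, fell from 419 ± 51.4 to 268 ± 42.0 CPM, and this call was lost without vehicle 2, TP-18 1 or TP-18 2 (adjusted p = 0.0630 to 0.0766). The receptor gene Tnfrsf21 kept its higher call only without vehicle 3 or TP-18 1 (edgeR adjusted p = 0.0751 to 0.118 in the other fits). Its log2 change ran from 0.72 to 1.11 with 1 library left out. Receptors that bind TRAIL without signalling death were read beside Tnfrsf10b. Of the mouse decoy receptors, Tnfrsf22 measured 57.8 ± 1.65 and 51.0 ± 3.27 CPM (adjusted p = 0.174), and Tnfrsf23 fell from 115 ± 18.9 to 76.2 ± 7.18 CPM (-0.59 ± 0.13 in log2 units, adjusted p = 0.0254), lost without vehicle 2, TP-18 1 or TP-18 3 (0.0573 to 0.0997). Tnfrsf21, Tnfrsf22 and Tnfrsf23 fall outside the rule for named genes and were chosen after their values were seen. The related Tnfrsf26 fell by 0.83 on the log2 scale, and its call was lost without vehicle 3, TP-18 1 or TP-18 3 (0.0537 to 0.0916). Tnfrsf11b, the soluble decoy osteoprotegerin, overlapped between groups at 2.45 ± 0.968 and 3.49 ± 1.32 CPM. Tnfrsf22, Tnfrsf23 and Tnfrsf26 are close paralogs, and how the counting divided shared reads is not given in the sources used here.

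Of 18 adaptors and kinases, 2 were called higher and 0 lower. Birc3, a ubiquitin ligase that holds RIPK1 in survival signalling, rose from 19.6 ± 0.528 to 34.0 ± 4.60 CPM (0.80 ± 0.11 in log2 units, adjusted p = 0.00682, edgeR). Zbp1, a sensor that can start necroptosis through RIPK3, rose from 45.2 ± 15.2 to 158 ± 37.4 CPM, with adjusted p-values of 0.0512 without vehicle 2 and 0.0552 without TP-18 1. Fadd, the adaptor that joins both receptors to caspase-8, measured 10.7 ± 1.55 and 12.5 ± 0.191 CPM (adjusted p = 0.329). Ripk1, the kinase that caspase-8 cleaves, measured 59.1 ± 2.05 and 69.7 ± 1.27 CPM, above all vehicle values in the TP-18 tumors, with an adjusted p of 0.0611.

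Of 8 other caspases tested, 2 were called higher. These were Casp1, the inflammasome caspase, which rose from 46.8 ± 5.00 to 79.0 ± 3.99 CPM (0.75 ± 0.10 in log2 units, adjusted p = 0.00491), and Casp12, which rose from 44.6 ± 1.96 to 69.7 ± 5.40 CPM (0.64 ± 0.09, adjusted p = 0.00547, edgeR). Neither is a member of the apoptotic cascade below death receptors. Casp9, the initiator of the mitochondrial branch, overlapped at 15.4 ± 1.18 and 16.7 ± 2.65 CPM (adjusted p = 0.610). Transcript levels do not report cleavage, by which these enzymes are switched on.

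Of 9 tested caspase inhibitors and their antagonists, 3 were called higher, all of them Naip genes, whose products are sensors of the inflammasome. Naip5 rose from 4.42 ± 0.214 to 8.09 ± 1.08 CPM, with the call lost without vehicle 2, TP-18 2 or TP-18 3 (adjusted p = 0.0719 to 0.0777). Naip6 and Naip2 rose by 0.69 and 0.34 (log2), and each call was kept only without vehicle 1 (0.0537 to 0.125 in the other 5 fits). The Naip genes are near copies of each other, so their single values are uncertain. Xiap, the direct inhibitor of effector caspases, measured 134 ± 5.11 and 144 ± 6.45 CPM (adjusted p = 0.363).

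The mitochondrial branch held calls in both directions. Of 12 tested pro-apoptotic genes, 1 was called higher and 3 lower, and of 7 anti-apoptotic genes 4 were called higher. Bid, which links caspase-8 to mitochondria, measured 42.8 ± 4.00 and 53.1 ± 0.787 CPM (adjusted p = 0.0564, and 0.0367 without vehicle 1). Of the pore-forming genes, Bak1 rose from 88.4 ± 5.61 to 110 ± 4.55 CPM while Bax fell from 103 ± 5.15 to 84.7 ± 1.59 CPM and Bok from 107 ± 23.4 to 66.1 ± 6.88 CPM. Bbc3, which encodes the p53-induced activator PUMA, fell from 23.4 ± 3.65 to 16.2 ± 1.82 CPM. Each of these calls was lost in at least 4 of 6 fits with a library left out: Bak1 and Bok kept theirs without vehicle 1 or vehicle 3, Bax without vehicle 1 and Bbc3 without vehicle 3, with adjusted p-values of 0.0585 to 0.165 otherwise. Bcl2, the founding survival gene, rose from 32.3 ± 1.08 to 48.2 ± 5.23 CPM (0.0589 without vehicle 2). Bcl2a1d, a survival gene of leukocytes, rose from 6.64 ± 1.14 to 15.4 ± 1.21 CPM (1.21 ± 0.16 in log2 units, adjusted p = 0.00534, edgeR). Its near-identical copies Bcl2a1b and Bcl2a1a rose by 1.07 and 1.24 (log2), and are uncertain as single genes. The Bcl2a1b call was lost without vehicle 2, TP-18 2 or TP-18 3 (0.0653 to 0.0714), and the Bcl2a1a call was kept only without vehicle 1 (0.0637 to 0.106 in the other 5 fits).

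Of 11 tested genes for apoptotic nucleases and for clearance of dead cells, 1 was called higher and 1 lower. Stab1, a scavenger receptor that binds dying cells, rose from 102 ± 6.65 to 140 ± 12.8 CPM, kept without vehicle 1 or vehicle 3 (adjusted p = 0.0541 to 0.0810 in the other 4 fits). Mfge8, which bridges dying cells to phagocytes, fell from 166 ± 15.0 to 128 ± 12.3 CPM, kept only without vehicle 1 (0.0569 to 0.154 in the other 5 fits).

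**Figure D4:**
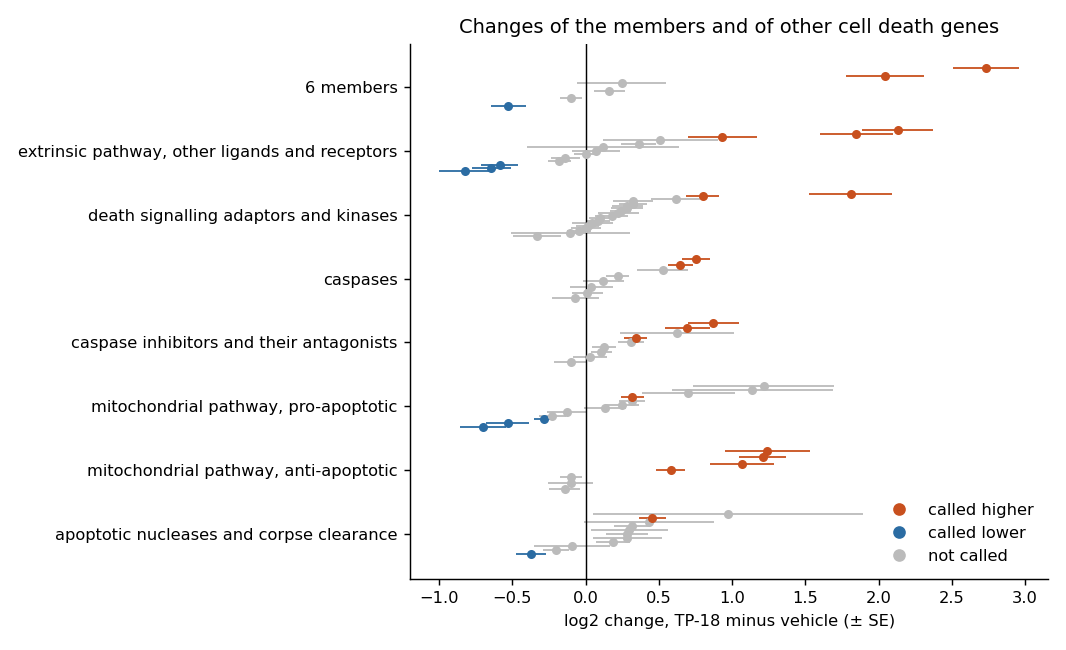
Log2 change with TP-18 minus vehicle (x axis, ± SE) of the 6 members and of the tested genes of 7 other cell death lists, 1 point per gene, orange where called higher, blue where called lower and grey where not called. Tnfsf10 at 2.73 and Fasl at 2.04 lie to the right in the top row, followed there by 3 grey points and by Tnfrsf10b at -0.53.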

How the data were processed

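RNA sequencing of 6 tumors, 3 vehicle and 3 TP-18 by the labels, was analysed from a table of raw counts per gene and a table of FPKM values, both deposited by the authors. Per the submitters' processing notes, fastp, HISAT2, HTSeq and the build GRCm38 were used. Tool versions, strandedness and the treatment of multiply mapped reads, not given in the sources used here, remain unknown. The authors' FPKM values equal counts over 1 gene length and the total count, within 0.1%, in 15884 of 15884 genes without a count of 0.

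Counts were tested in R 4.3.3 with edgeR 4.0.16: filterByExpr (minimum count 10, total 15), TMM scaling, group as the sole term, robust quasi-likelihood F test (two-sided), Benjamini-Hochberg over 14189 genes. Log2 changes are TP-18 minus vehicle (prior count 0.125), with SE from the F statistic and 95% intervals from its degrees of freedom. Ratios used log2(FPKM + 0.1) and an exact permutation test in scipy 1.17.1, adjusted over 5. The fit was tested on simulated data. Named genes are the 6 members, up to 4 called genes per list by smallest p, 10 set pathway genes and 3 genes most like each member (mean log2 CPM 2 or more), with Ifng and Irf1 as context. Of these, 2 genes and 1 ratio are not reported here. Lists of B and plasma cells (2 of 3 tested called higher), endothelium (0 of 6), fibroblasts (0 of 6), neutrophils (0 of 6) and intestinal epithelium (1 of 3 lower) were also read. The members and lists were chosen with earlier results of these data known.

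Results were recomputed with RLE or upper-quartile scaling, 2 other filters on low counts, non-robust moderation, a replicate block, DESeq2 1.42.0, limma 3.58.1 (voom on counts, trend on log2 FPKM, pseudocount 1 or 0.1) and without each library.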

Additional observations from a re-analysis of the deposited data

How the results depend on the processing

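The rises of Tnfsf10 and Fasl passed under all 16 alternatives run, and Fas and Casp8 passed under none of them. Tnfrsf10b kept its direction but missed the threshold in 7 of the 16. These were the replicate block, the fits without vehicle 2, vehicle 3, TP-18 1 or TP-18 3, and limma on both FPKM scales. Limma gave it -0.34 on log2(FPKM + 1) (adjusted p = 0.0830) and -0.39 on log2(FPKM + 0.1) (0.0786), which leaves 0 members lower. In the same limma fits Cflar turned to 0.0397 and 0.0410 (log2). In these FPKM fits the median of all genes lay 0.13 and 0.14 above the TMM fit, and 215 and 230 genes were lower, 0 of them from the pathway lists. DESeq2 called 1240 genes lower. Leaving out 1 library gave 388 to 1216 genes higher and 111 to 1023 lower (fewest without TP-18 3, most without vehicle 1), 6 to 19 pathway genes higher and 0 to 7 lower, 0 to 1 members lower, and a Tnfrsf10b change of -0.64 to -0.45. The log2 ratio of Fasl to T and NK markers ran from -0.259 to 0.00807 with 1 library left out, turning without TP-18 2. On log2(FPKM + 1) it was -0.260 with separate groups, and that of Fasl to Fas was 0.81 with overlapping groups. The other 3 ratios reported kept their direction. Such fits hold fewer samples.

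The labels pair no tumors, and deviations of equally numbered tumors correlated at 0.24, -0.08 and -0.04, with the best match at the same number for 1 of 3 numbers. With the replicate block, 547 genes were higher and 231 lower, 7 pathway genes higher and 2 lower, 2 members higher and 0 lower, with Tnfrsf10b at -0.54 (adjusted p = 0.0676). Fasl rests on 28 to 42 reads per vehicle library, fewer than any other member.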
